A study of Mus musculus with 12 samples.

Results

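The comparison described here asked whether loss of the polarity genes Llgl1 and Llgl2 changed epidermal transcripts differently when a Trp53 allele was also lost. For each gene the interaction was the Llgl change in Trp53 heterozygotes (Llgl cKO Trp53 het against Trp53 het) minus the Llgl change with intact Trp53 (Llgl cKO against control), on the log2 scale. A value of 0 means that the Llgl change was the same fold in both Trp53 genotypes, a negative value that the level in Llgl cKO Trp53 het mice was lower than the 2 separate changes would give when multiplied, and a positive value that it was higher. All 12 of the 12 libraries of the series entered, 3 in each of 4 groups, and 14582 genes were tested.

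RNA came from skin epidermis of newborn mice. Every group carried K14-Cre, in which the keratin 14 promoter drives Cre recombinase in basal keratinocytes and their descendants, so other skin cells kept intact alleles. Llgl cKO Trp53 het mice carried K14-Cre with floxed Llgl1 and Llgl2 on both alleles and 1 floxed Trp53 allele. Trp53 het mice carried K14-Cre and 1 floxed Trp53 allele, Llgl cKO mice K14-Cre and floxed Llgl1 and Llgl2 on both alleles, and control mice K14-Cre alone per the labels. The labels did not say which mice were littermates, and p-values measure the spread between these 12 samples.

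LLGL1 and LLGL2 are the mammalian homologues of Drosophila lethal giant larvae, a cytoplasmic protein that restricts the apical polarity kinase aPKC to its own domain and whose loss in the fly causes overgrowth. TRP53 is the transcription factor p53, which is stabilised after DNA damage and other stress and induces genes of cell cycle arrest, DNA repair and cell death. In newborn mouse skin the first hair follicles are forming their shafts: matrix cells give rise to the cortex and cuticle, built of hair keratins and keratin-associated proteins, and to the inner root sheath, built of its own keratins and trichohyalin, while sebaceous glands attached to the follicles make wax esters, sterol esters and triglycerides.

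Summed counts per library ran from 6738720 to 14509507, and Trp53 het 2 and control 1 were the shallowest, with 6901424 and 6738720. Libraries of the same group had Pearson correlations across genes of 0.932 to 0.983 on the log2 scale. Krt5, Krt14, Krt1, Krt10 and Lor, markers of basal, spinous and granular keratinocytes, were abundant in every group, with Krt10 at 32760, 30290, 32270 and 29370 CPM in Llgl cKO Trp53 het, Trp53 het, Llgl cKO and control. By Xist and Y-linked transcripts Llgl cKO Trp53 het 1, Trp53 het 3, Llgl cKO 1, control 2 and control 3 were female. The library labelled Trp53 het 3 and control 3 stood apart from the other libraries of their groups, with fewer hair transcripts and more cell cycle transcripts, and the medians of the hair, sebaceous gland and cell cycle lists are given with and without them.

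None of the targeted genes passed the test for an interaction. Llgl2 (ENSMUSG00000020782) measured 6.12, 12.4 and 7.03 CPM (counts scaled to library size) in Llgl cKO Trp53 het, 109, 97.1 and 66.5 in Trp53 het, 7.63, 7.73 and 9.69 in Llgl cKO, and 110, 84.9 and 65.4 in control. Llgl2 fell by 3.42 on the log2 scale in Trp53 heterozygotes (edgeR adjusted p 0.000385) and by 3.38 with intact Trp53 (adjusted p 0.000532), an interaction of -0.04 with a 95% interval from -0.91 to 0.83. Llgl1 transcript was higher in the Llgl mutants, at 216 ± 30.5 CPM in Llgl cKO Trp53 het, 133 ± 9.58 in Trp53 het, 256 ± 33.1 in Llgl cKO, against 138 ± 30.6 in control (SD, n = 3). Llgl1 rose by 0.69 in Trp53 heterozygotes and by 0.89 with intact Trp53, neither called. The mean of these 2 changes was 0.79 (edgeR adjusted p 0.00723), and the interaction of Llgl1 was -0.20 (-0.72 to 0.32). Counts per gene do not show whether the floxed segment of Llgl1 was removed, which was not tested. Trp53 measured 98.3, 67.8 and 65.9 CPM in Llgl cKO Trp53 het, 61.8, 60.9 and 115 in Trp53 het, 120, 122 and 112 in Llgl cKO, and 130, 109 and 123 in control. The library labelled Trp53 het 3 therefore lay within the range of mice with intact Trp53, and Llgl cKO Trp53 het 1 was the highest of its group. The interaction of Trp53 was 0.00 (-0.72 to 0.72).

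No gene passed the test for an interaction. With edgeR's quasi-likelihood test and Benjamini-Hochberg adjustment, 0 of 14582 genes (0%) had an adjusted p below 0.05, and DESeq2 and limma-voom likewise called 0. At an unadjusted p below 0.05 edgeR gave 428 genes (2.94%), DESeq2 471 and limma-voom 378. With a block for the replicate number shared by Trp53 het and control libraries, chosen with results known, edgeR called 0 and gave 733 (5.03%). Evenly spread p-values would put a share of 0.05 of genes below 0.05, more than the 2.94% without a block. Without it the p-values leaned towards 1, with 428 genes from 0 to 0.05 and 987 from 0.95 to 1. The 428 are therefore fewer than evenly spread p-values would give. Because the p-values leaned towards 1, this count cannot show whether small ones were in excess. The smallest unadjusted p was 0.000767, against the 3.43e-06 that the gene ranked first would have needed, and each adjusted p was 1. Of the 428 genes, 269 (1.84% of those tested) had a negative interaction and 159 (1.09%) a positive one. Over all genes the median interaction was 0.00, with 7151 genes negative and 7431 positive.

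The design had less precision for the interaction than for either change it compares. The median standard error of the interaction was 0.306 on the log2 scale, against 0.217 for the Llgl change in Trp53 heterozygotes and 0.216 with intact Trp53. The median 95% interval of the interaction reached 0.67 to either side of its value, 0.52 for the 9548 genes with a mean of at least 10 CPM and 1.26 for the 5034 genes below. Of the genes tested, 10140 (69.5%) had intervals that reached less than 1, that is 2-fold, to either side. Interactions of under 2-fold in genes below 10 CPM therefore mostly had intervals that include 0. The intervals are not adjusted for the number of genes, and a call needed a far smaller p. Scd1, at an interaction of -1.69 and group means of 72.0 to 272 CPM, was not called. Interactions above 2-fold in abundant genes could thus be missed as well.

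The 2 Llgl changes themselves were called at different numbers of genes. In Trp53 heterozygotes 198 genes passed (1.36%), of which 64 rose (0.439%) and 134 fell (0.919%), and with intact Trp53 33 genes passed (0.226%), of which 13 rose (0.0892%) and 20 fell (0.137%). At an unadjusted p below 0.05 these differences held 2240 genes (15.4%) and 920 genes (6.31%) in the same order. The 30 genes called in both make up 15.2% of the first set and 90.9% of the second, and 165 of the 168 genes called in Trp53 heterozygotes alone had the same sign with intact Trp53. A call in 1 Trp53 genotype and not in the other is not a difference between them: 0 of these genes passed the test of the difference itself. Across genes the 2 changes, which share no libraries, had a Pearson r of 0.758, and 0.801 over genes with a mean of at least 10 CPM. Same-number Trp53 het and control libraries, the baselines of the 2 changes, deviated together, with correlations of 0.596, 0.19 and 0.812. This can raise the Pearson r and the count of shared signs. Genes share libraries and are not independent replicates, so the Pearson r is a description.

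**Figure D1:**
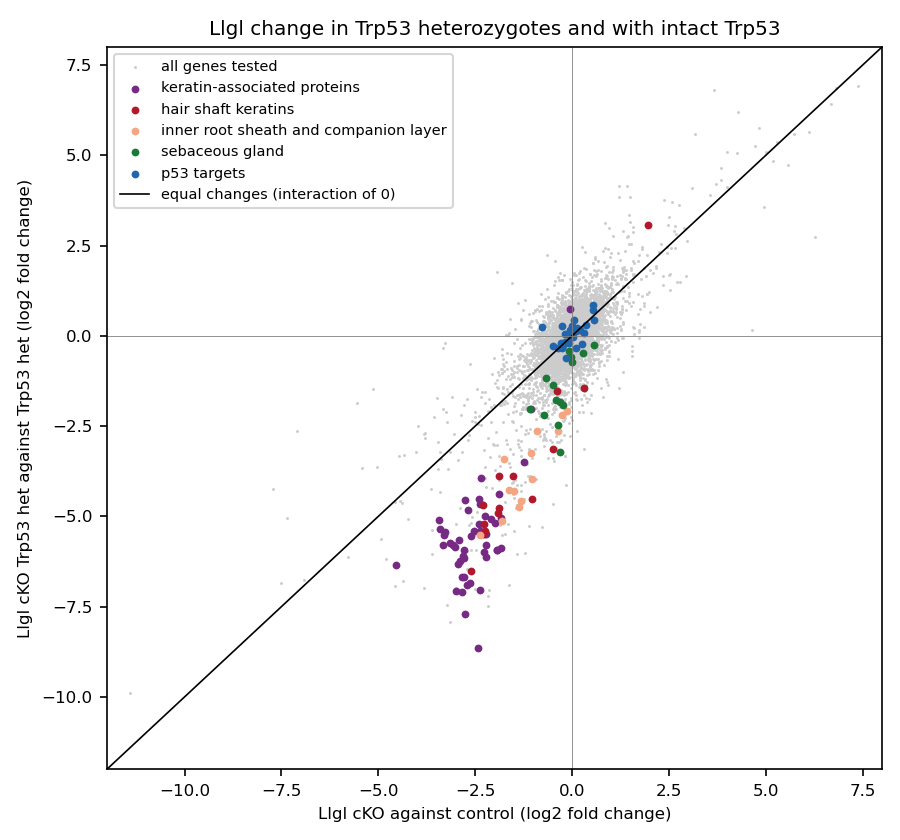
Llgl change with intact Trp53 (x axis, log2 fold change of Llgl cKO against control) and in Trp53 heterozygotes (y axis, log2 fold change of Llgl cKO Trp53 het against Trp53 het), 1 point per gene tested, with the line of equal changes. Over all genes tested the Pearson r was 0.758, and the coloured points of the hair and sebaceous gland lists lie mostly below it.

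The genes changed in both Trp53 genotypes showed how an additive change looks in these data. Being called in both favours similar values, so they are a description; those named here were picked with their values in view, and no alternative was run for them. Of the 30, 22 had more than 3 counts in each group, with 11 higher and 11 lower in Llgl mutants, and 21 of these 22 had interactions between -1 and 1. Acer2, an alkaline ceramidase, fell by 1.49 in Trp53 heterozygotes and by 1.53 with intact Trp53, an interaction of 0.04 (-0.55 to 0.63). St6galnac2, a sialyltransferase, fell by 1.17 and by 1.27 in the same order, an interaction of 0.11 (-0.31 to 0.52). Dera, the aldolase that cleaves deoxyribose phosphate, rose by 1.19 in Trp53 heterozygotes and by 0.91 with intact Trp53, an interaction of 0.27 (-0.06 to 0.61). Stfa1, a stefin A protease inhibitor, and Skint6, of the family that includes the selecting factor of epidermal T cells, fell in both. The changes of Stfa1 were -6.77 in Trp53 heterozygotes and -6.93 with intact Trp53, an interaction of 0.16 (-1.33 to 1.65), and those of Skint6 were -4.64 and -4.38 in the same order, an interaction of -0.26 (-1.54 to 1.02). Stefin A and Skint genes belong to families of similar genes, so that their reads may have been split or lost between members.

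Genes chosen by the average of the 2 Llgl changes leaned towards a larger change in Trp53 heterozygotes. The average is unrelated to the interaction only where both changes are equally precise. Their median standard errors were 0.217 and 0.216, but those of Krtap24-1 were 1.395 in Trp53 heterozygotes and 0.808 with intact Trp53. For such low genes the choice itself favours a negative interaction, so the counts below are a description. The average Llgl change called 485 genes (3.33%), of which 172 rose (1.18%) and 313 fell (2.15%). Among the 313 lower genes the median change was -2.63 in Trp53 heterozygotes and -1.44 with intact Trp53, and the median interaction was -0.91, or -0.74 for the 270 with more than 3 counts in each group, beside 0.00 over all genes. In 251 of the 313 (80.2%) the fall was larger in Trp53 heterozygotes, 89 had a negative interaction at an unadjusted p below 0.05 (28.4%, against 1.84% of all genes) and 3 a positive one. Among the 172 higher genes the median change was 1.10 in Trp53 heterozygotes and 0.85 with intact Trp53, the median interaction was 0.25, and 13 genes (7.56%, against 1.09% of all genes) had a positive interaction at that threshold. None of the 485 had an adjusted p below 0.05 for the interaction, and these genes share libraries and in part cell types, so their number is not a number of independent observations.

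Hair shaft keratins had a more negative median interaction than any list but 1, the keratin-associated proteins. They are the type I and type II keratins of cortex and cuticle, and 14 of 16 listed members were tested (Krt85 and Krt87 were not analysed here). The median interaction was -2.76, from a median change of -4.59 in Trp53 heterozygotes and -1.89 with intact Trp53. The interaction was negative in 13 of 14 members, 9 of them at an unadjusted p below 0.05 (1.84% of all genes were), and 0 passed adjustment. In Trp53 heterozygotes 11 of the 14 were called lower (adjusted p below 0.05), where 0.919% of all genes were, and with intact Trp53 0 were, where 0.137% of all genes were. In 13 of 14 members all 3 Llgl cKO Trp53 het libraries lay below the other 9, a pattern found in 2.18% of all genes. Krt84, named as the exception after its values were seen, had an interaction of 1.12 (-2.03 to 4.26) at mean levels of 1.75, 0.21, 1.17 and 0.30 CPM in Llgl cKO Trp53 het, Trp53 het, Llgl cKO and control. Hair keratins resemble each other closely in sequence, and how the authors' counting treated shared reads was not given in the sources used here, so single members are less certain than their common direction.

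Krt82, a type II keratin of the hair cuticle (ENSMUSG00000049548, chromosome 15, 101541214 to 101550667, GRCm38), had the smallest interaction p of the list. It measured 1.41, 0.256 and 0.586 CPM in Llgl cKO Trp53 het, 23.2, 20.8 and 9.11 in Trp53 het, 5.08, 16.4 and 4.49 in Llgl cKO, and 23.7, 22.8 and 7.01 in control. All Llgl cKO Trp53 het libraries lay below the other 9, while Llgl cKO and control libraries overlapped because Llgl cKO 2 was high and control 3 low. Krt82 fell by 4.51 in Trp53 heterozygotes (adjusted p 0.0316, edgeR) and its change with intact Trp53 was -1.03 (adjusted p 0.889), an interaction of -3.48 (-5.67 to -1.29, unadjusted p 0.00456, adjusted p 1), or -3.41 with Trp53 het 3 and control 3 left out. Krt36, a type I hair keratin, measured 1.18, 0.256 and 0.167 CPM in Llgl cKO Trp53 het, 5.35, 4.94 and 4.29 in Trp53 het, 1.37, 5.25 and 2.29 in Llgl cKO, and 3.76, 5.70 and 3.06 in control. Its interaction was -2.64 (-4.53 to -0.76). Krt35, the first type I keratin to appear in the forming shaft, measured 29.9, 16.6 and 16.1 CPM in Llgl cKO Trp53 het, 38.2, 54.8 and 77.5 in Trp53 het, 63.2, 146 and 34.1 in Llgl cKO, and 55.1, 71.2 and 70.0 in control, an interaction of -1.75 (-3.18 to -0.33). Krt81, a type II keratin of the cortex, measured 2.90, 0.683 and 0.754 CPM in Llgl cKO Trp53 het and 66.8, 51.7 and 15.6 in Trp53 het, against 6.87, 24.7 and 8.81 in Llgl cKO and 79.1, 63.3 and 11.5 in control. Its interaction was -3.0 (-5.61 to -0.39).

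The library labelled Trp53 het 3, control 3 and Llgl cKO 2 moved these values. Hair shaft keratins averaged -1.64, -2.92 and -2.72 log2 units from the mean of all libraries in Llgl cKO Trp53 het, 1.76, 1.5 and 0.37 in Trp53 het, -0.57, 0.96 and -0.59 in Llgl cKO, and 1.95, 1.93 and -0.03 in control. Without control 3 and Trp53 het 3 the median interaction of the list was -2.67. Without Trp53 het 3 and Llgl cKO Trp53 het 1, the libraries with the most Trp53 of their groups and the females of those groups, it was -3.86. Without Llgl cKO 2 it was -1.84, and the count of genes at an unadjusted p below 0.05 over the whole table was 243. In whole epidermis, fewer cells of a type and less RNA per cell cannot be told apart.

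**Figure D2:**
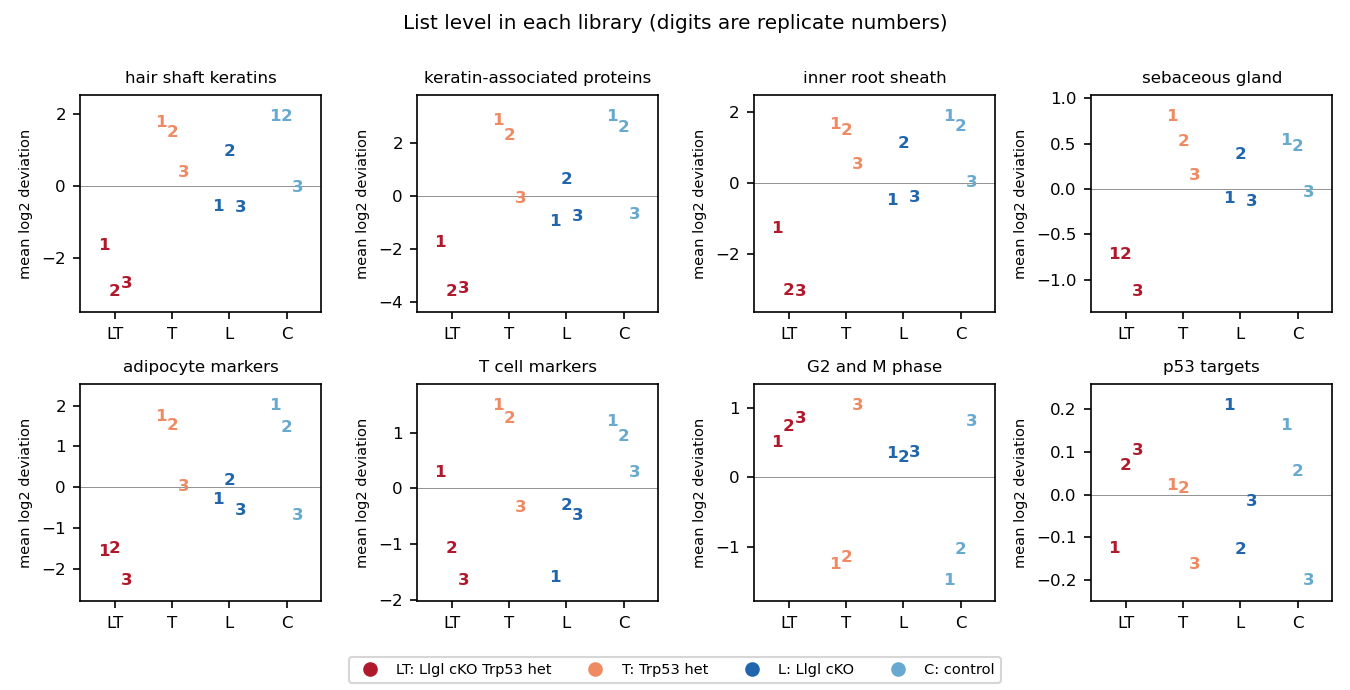
Level of 8 gene lists in each library, as the mean log2 deviation of the tested members from their mean over all libraries (y axis), for Llgl cKO Trp53 het (LT), Trp53 het (T), Llgl cKO (L) and control (C), with replicate numbers as symbols. Hair shaft keratins lie from -2.92 to -1.64 in Llgl cKO Trp53 het, and the other 3 groups lie higher and overlap.

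Keratin-associated proteins, the matrix in which hair keratin filaments are embedded, had the same direction at lower counts. Of 57 listed genes 49 were tested, with a median interaction of -3.03, or -2.93 for the 33 with more than 3 counts in each group. The median change was -5.75 in Trp53 heterozygotes and -2.62 with intact Trp53. The interaction was negative in 48 of 49, with 7 at an unadjusted p below 0.05 (1.84% of all genes were). In Trp53 heterozygotes 6 genes were called lower (0.919% of all genes were) and with intact Trp53 0 (0.137%). The median was -2.93 with Trp53 het 3 and control 3 left out, -5.96 with Llgl cKO Trp53 het 1 and Trp53 het 3 left out, and -2.23 without Llgl cKO 2. In 31 of the 49 the Llgl cKO Trp53 het libraries lay below the other 9, as in 2.18% of all genes. Krtap3-2, the exception, chosen after its values were seen, had an interaction of 0.82 (-0.83 to 2.46). Krtap16-1 measured 1.18, 0 and 0.167 CPM in Llgl cKO Trp53 het, 44.3, 33.6 and 8.96 in Trp53 het, 2.95, 13.8 and 6.17 in Llgl cKO, and 49.9, 33.4 and 5.32 in control, and its interaction was -4.0 (-7.40 to -0.60). Krtap24-1 measured 0.471, 0 and 0 CPM in Llgl cKO Trp53 het, 15, 11.5 and 4.22 in Trp53 het, 1.03, 5.10 and 1.32 in Llgl cKO, and 11, 13.3 and 2.5 in control, with an interaction of -4.04 (-7.59 to -0.50). Krtap4-1 held 2 counts in all of Llgl cKO Trp53 het and 400 in Trp53 het, a ratio of 235 (exact 95% interval 64.6 to 1950), against 96 counts in Llgl cKO and 436 in control, a ratio of 5.94 (4.75 to 7.49). These intervals cover counting error only.

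On the linear scale the departure from additivity of keratin-associated proteins was evenly split. The difference of differences in CPM was negative in 25 of 49 members, against 48 on the log2 scale, and for hair shaft keratins in 9 of 14 against 13. Over all genes the sign differed between the scales in 473 (3.24%). Krtap4-1 is an example: its linear interaction was 0.324 CPM with a standard error of 9.36, and its log2 interaction was -4.96 (-11 to 1.09). The 2 estimates differ in sign, but neither was resolved. The log2 interval includes 0, and the linear value is far smaller than its standard error.

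Inner root sheath and companion layer genes included the keratins Krt25 to Krt28 and Krt71 to Krt75 and the granule protein trichohyalin. All 14 listed members were tested and all 14 interactions were negative, with a median of -2.46 from -3.69 in Trp53 heterozygotes and -1.19 with intact Trp53. At an unadjusted p below 0.05 there were 10 (1.84% of all genes were negative there). In Trp53 heterozygotes 6 members were called lower (0.919% of all genes were) and with intact Trp53 0 (0.137%). In 9 members the Llgl cKO Trp53 het libraries lay below all others, as in 2.18% of all genes. On the linear scale 13 of the 14 were negative. Without Trp53 het 3 and Llgl cKO Trp53 het 1 the median was -3.46, and without Llgl cKO 2 it was -1.69. Leaving out Trp53 het 3 and control 3 gave -2.37.

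Krt28, a type I keratin of the inner root sheath, measured 34.4, 12.9 and 15.2 CPM in Llgl cKO Trp53 het, 94.9, 105 and 84.2 in Trp53 het, 75.9, 161 and 40.5 in Llgl cKO, and 129, 129 and 73.4 in control. The Llgl cKO Trp53 het libraries lay below the others, and its interaction was -1.93 (-3.40 to -0.45). Krt26, of the same layer, measured 6.04, 1.71 and 1.26 CPM in Llgl cKO Trp53 het and 109, 97.8 and 36.4 in Trp53 het, against 22.5, 61.4 and 14.3 in Llgl cKO and 119, 114 and 23.3 in control. Its interaction was -3.35 (-5.75 to -0.96). Krt25 had an interaction of -2.93 (-5.17 to -0.69). Tchh, trichohyalin, which hardens inner root sheath and medulla cells, measured 101, 43.8 and 60.5 CPM in Llgl cKO Trp53 het, 1850, 1480 and 650 in Trp53 het, 190, 834 and 361 in Llgl cKO, and 2340, 1530 and 405 in control. Tchh fell by 4.28 in Trp53 heterozygotes (adjusted p 0.0322) and changed by -1.62 with intact Trp53 (adjusted p 0.732), an interaction of -2.65 (-4.71 to -0.60), or -2.54 with Trp53 het 3 and control 3 left out. As amounts its interaction was -294 CPM with a standard error of 692.

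Other hair differentiation proteins and the regulators of the hair matrix had less negative medians than the hair keratin lists. The 12 tested hair differentiation proteins other than keratins had a median interaction of -0.73, 4 of them negative at an unadjusted p below 0.05 (1.84% of all genes were). Their values ran from -2.89 to 0.35, so the median joins unlike members. Summed, the list stood at 3520 to 5670 CPM in Llgl cKO Trp53 het and 3670 to 4990 in control. Crym, a thyroid hormone binding protein expressed in hair follicles, measured 5.10, 0.769 and 1.76 CPM in Llgl cKO Trp53 het, 59.6, 53.5 and 22.2 in Trp53 het, 7.97, 33.1 and 9.78 in Llgl cKO, and 64.9, 58.6 and 13.9 in control, an interaction of -2.70 (-5.08 to -0.33). Dsg4, the desmosomal cadherin of the hair shaft, had -2.14 (-4.05 to -0.23). The 12 hair matrix transcription factors had a median interaction of -0.47, from -0.24 in Trp53 heterozygotes and 0.21 with intact Trp53, with 11 negative and 2 at an unadjusted p below 0.05. Vdr, the vitamin D receptor, which hair cycling requires, measured 90.1, 79.1 and 89.8 CPM in Llgl cKO Trp53 het, 179, 170 and 143 in Trp53 het, 139, 158 and 85.4 in Llgl cKO, and 147, 151 and 126 in control. Vdr fell by 0.93 in Trp53 heterozygotes (adjusted p 0.0471) and its interaction was -0.78 (-1.38 to -0.19). Llgl cKO 3 overlapped the Llgl cKO Trp53 het libraries.

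Follicle progenitor genes had a median interaction close to 0. Over 21 progenitor and signal genes of the follicle the median interaction was 0.13, with median changes of 0.48 in Trp53 heterozygotes and 0.44 with intact Trp53, and the 13 tested Wnt targets had 0.02. Tbx1, a transcription factor of hair follicle stem cells, was the progenitor gene of smallest p and had a negative interaction, -1.14 (-2.12 to -0.16). Lef1, a Wnt effector of the hair germ and matrix, measured 69.8, 63.0 and 58.4 CPM in Llgl cKO Trp53 het, 22.8, 20.9 and 41.7 in Trp53 het, 60.7, 54.5 and 53.5 in Llgl cKO, and 23.2, 33.5 and 47.3 in control. Lef1 rose by 0.92 in the average Llgl change (adjusted p 0.0266), with an interaction of 0.46 (-0.38 to 1.31). Smo, the Hedgehog signal transducer, had -0.25 (-0.59 to 0.09), Smad7, an inhibitor of BMP and TGF-beta signals, -0.46 (-1.03 to 0.11), and Heyl, a Notch target, -0.82 (-1.70 to 0.05). The BMP, Notch and Hedgehog lists had medians of -0.30, -0.25 and -0.15 with 0 members at an unadjusted p below 0.05. Values were negative in 10 of 11 BMP, 9 of 10 Notch and 8 of 12 Hedgehog genes tested, where 49% of all genes were. The Hedgehog median was 0.03 without Llgl cKO 2, so its direction was not resolved.

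Sebaceous gland genes also had a common direction. Of 16 listed genes 15 were tested (Plin5 fell below the count filter), with a median interaction of -0.88 from -1.37 in Trp53 heterozygotes and -0.30 with intact Trp53. The interaction was negative in 14 of 15, with 8 at an unadjusted p below 0.05 (1.84% of all genes were) and 0 after adjustment. In Trp53 heterozygotes 8 members were called lower (0.919% of all genes were), and with intact Trp53 0 were (0.137%). In 8 members all Llgl cKO Trp53 het libraries lay below the other 9, as in 2.18% of all genes. On the linear scale 14 of 15 were negative, so the direction did not depend on the scale. The median was -1.25 without Trp53 het 3 and Llgl cKO Trp53 het 1. It was -0.90 with control 3 and Trp53 het 3 left out.

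Scd1, the stearoyl-CoA desaturase that makes the monounsaturated fatty acids of sebum (ENSMUSG00000037071, chromosome 19, 44394455 to 44407879, GRCm38), had the second smallest interaction p of the table. It measured 93.1, 71.0 and 52.0 CPM in Llgl cKO Trp53 het, 321, 238 and 258 in Trp53 het, 125, 264 and 163 in Llgl cKO, and 190, 239 and 216 in control. The Llgl cKO Trp53 het libraries lay below the other 9, and Llgl cKO libraries spanned the control range. Scd1 fell by 1.92 in Trp53 heterozygotes (adjusted p 0.00996, edgeR), its change with intact Trp53 was -0.22 (adjusted p 0.982), and its interaction was -1.69 (-2.52 to -0.86, unadjusted p 0.000901, adjusted p 1). With DESeq2 its adjusted p for the interaction was 0.143, a value shared with Cyp2g1 and the smallest under any alternative run. On the linear scale the interaction was -169 CPM with a standard error of 52.

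Other genes of sebum synthesis had the same order of groups. Soat1, which esterifies sterols, measured 20.2, 14.6 and 11.9 CPM in Llgl cKO Trp53 het, 60.5, 45.2 and 62.2 in Trp53 het, 21.9, 53.3 and 36.4 in Llgl cKO, and 33.4, 54.8 and 49.0 in control, an interaction of -1.54 (-2.50 to -0.59). Elovl3, an elongase of very long chain fatty acids, measured 9.42, 5.04 and 2.09 CPM in Llgl cKO Trp53 het and 38.2, 30.7 and 23.7 in Trp53 het, against 14.8, 33.4 and 16 in Llgl cKO and 29.9, 32.7 and 19.7 in control. Its interaction was -2.12 (-3.54 to -0.71). Mc5r, the melanocortin receptor that stimulates sebum secretion, stood at 0.251 to 0.471 CPM in Llgl cKO Trp53 het and had -2.89 (-4.96 to -0.83). Fa2h, the hydroxylase that makes 2-hydroxy fatty acids of hair and sebum lipids and a member of the barrier lipid list, measured 9.81, 5.38 and 1.84 CPM in Llgl cKO Trp53 het, 77.9, 41.4 and 33.7 in Trp53 het, 20.4, 54.3 and 25 in Llgl cKO, and 46.6, 48.3 and 31.1 in control. Its interaction was -2.83 (-4.47 to -1.18). Dgat2, a triglyceride synthase, was the exception, named after its values were seen, at 0.05 (-0.75 to 0.84).

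Cholesterol synthesis genes had small values. The 22 genes had a median interaction of -0.27, from -0.19 in Trp53 heterozygotes and -0.01 with intact Trp53. Of these genes 18 were negative, where 49% of all genes were.

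**Figure D3:**
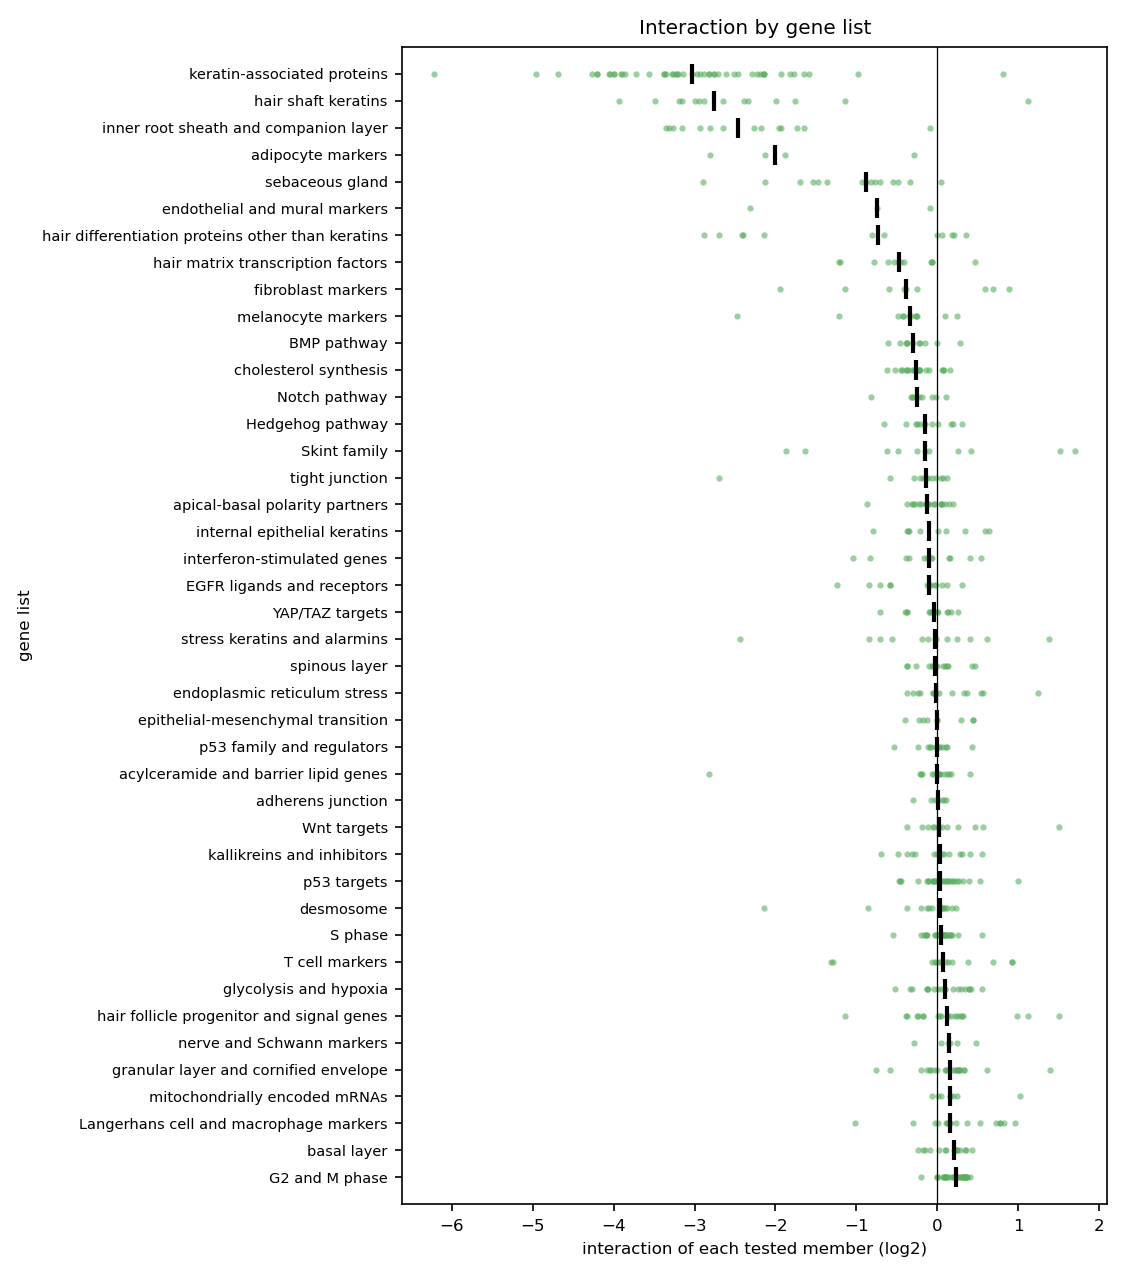
Interaction of each tested member (points, x axis, log2) in the 42 gene lists with at least 3 tested members, with the list median marked. The keratin-associated proteins, hair shaft keratins and inner root sheath lists have medians of -3.03, -2.76 and -2.46, and most other lists centre close to 0.

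Across the 42 lists with at least 3 tested members, 26 had a negative and 16 a positive median interaction. The 44 lists held 708 genes, of which 694 were in the table and 610 were tested. At an unadjusted p below 0.05, 50 of the 610 tested had a negative interaction and 2 a positive one. Over all genes 1.84% and 1.09% did in the same order, and the lists were chosen with earlier results of these data known. The 2 positive members were Krt16, a stress keratin of the hair follicle and of wounded epidermis, and Asns, asparagine synthetase, a target of the integrated stress response. Krt16 measured 203, 497 and 386 CPM in Llgl cKO Trp53 het, 145, 223 and 132 in Trp53 het, 196, 130 and 207 in Llgl cKO, and 188, 253 and 196 in control. Its interaction was 1.38 (0.42 to 2.34), and Llgl cKO Trp53 het 1 lay among the other groups. Asns measured 38.8, 51.6 and 144 CPM in Llgl cKO Trp53 het and 28.7 to 50.4 in the other 9 libraries, an interaction of 1.25 (0.05 to 2.45) that was 0.46 without Llgl cKO Trp53 het 3.

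The p53 target genes had a median interaction near 0. All 30 were tested, with a median of 0.03 from 0.09 in Trp53 heterozygotes and -0.02 with intact Trp53, with 12 negative and 18 positive. The intervals were informative for most of them: in 20 of 30 the 95% interval lay within -1 to 1 and in 27 within -2 to 2, and 28 values lay between -0.5 and 0.5. Cdkn1a, which encodes the cell cycle inhibitor p21, and Mdm2, the ubiquitin ligase that p53 induces and that degrades it, were named for their place in the pathway after their values were seen. Cdkn1a measured 324, 499 and 394 CPM in Llgl cKO Trp53 het, 539, 492 and 337 in Trp53 het, 454, 366 and 415 in Llgl cKO, and 574, 498 and 324 in control. The groups overlapped and the interaction was 0.01 (-0.73 to 0.75). Mdm2 had 0.12 (-0.36 to 0.59), at 59.5 ± 3.00 CPM in Llgl cKO Trp53 het, 54.7 ± 9.28 in Trp53 het, 57.9 ± 4.06 in Llgl cKO, against 57.8 ± 11 in control (SD, n = 3).

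Sulf2, an extracellular sulfatase, was the target with the smallest p. It measured 108, 110 and 97.4 CPM in Llgl cKO Trp53 het, 125, 122 and 120 in Trp53 het, 148, 148 and 110 in Llgl cKO, and 122, 109 and 112 in control, an interaction of -0.47 (-0.85 to -0.09, unadjusted p 0.0192, adjusted p 1 with edgeR). Fas, a death receptor, had the next smallest and a wide interval, 1.00 (-0.67 to 2.67), while Bax, a cell death effector, had 0.21 (-0.16 to 0.57) and Ddb2, a DNA damage recognition protein, 0.27 (-0.21 to 0.74). The 14 tested genes of the p53 family and its regulators had a median of -0.01, and Trp63, the p53 relative that basal keratinocytes require, had -0.24 (-0.80 to 0.32).

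Cell cycle genes had small positive medians that single libraries turned. The 30 G2 and M phase genes had a median interaction of 0.23, from 0.75 in Trp53 heterozygotes and 0.52 with intact Trp53. The interaction was positive in 28 of the 30, with 0 at an unadjusted p below 0.05. Their level was high in the library labelled Trp53 het 3 and in control 3: Kif23, a kinesin of cytokinesis, measured 59.9, 65.5 and 70.6 CPM in Llgl cKO Trp53 het, 19.8, 24.1 and 69.9 in Trp53 het, 45.9, 47.5 and 46.6 in Llgl cKO, and 22.9, 21.3 and 58.1 in control. The median of the list was 1.44 without Trp53 het 3, -0.89 without control 3 and 0.42 without both, so no direction was resolved. The 27 S phase genes had 0.05, with 0.73 without Trp53 het 3, -0.69 without control 3 and 0.00 without both.

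Epidermal layers and junctions had list medians near 0. The basal, spinous and granular layer lists had medians of 0.21, -0.02 and 0.15, and the desmosome, adherens junction and tight junction lists 0.04, 0.01 and -0.14, with 1 member of the desmosome list and 1 of the tight junction list at an unadjusted p below 0.05. These were Dsg4 and Cldn3, an epithelial claudin, which measured 0.706, 0.598 and 0.335 CPM in Llgl cKO Trp53 het, 6.56, 5.67 and 2.26 in Trp53 het, 2.34, 5.47 and 1.14 in Llgl cKO, and 6.7, 4.08 and 1.53 in control, an interaction of -2.69 (-4.80 to -0.58). The 20 tested partners of Llgl in apical-basal polarity had a median of -0.13, and Pard3b, a Par3 relative, had -0.87 (-1.85 to 0.11). YAP/TAZ targets and regulators had -0.04, with Lats2, a kinase that inhibits YAP, at -0.37 (-0.82 to 0.07).

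Stress, metabolic and signalling lists were likewise close to 0. The medians were 0.00 for barrier lipid genes, 0.03 for kallikreins and their inhibitors, -0.03 for stress keratins and alarmins, -0.11 for internal epithelial keratins, -0.10 for EGFR ligands and receptors, -0.10 for interferon-stimulated genes, -0.02 for endoplasmic reticulum stress, -0.01 for regulators of epithelial-mesenchymal transition and 0.09 for glycolysis and hypoxia genes. Ero1l, an oxidase of the endoplasmic reticulum that hypoxia induces, measured 26.4, 29.2 and 26.4 CPM in Llgl cKO Trp53 het, 46.7, 43.2 and 49.8 in Trp53 het, 34.4, 47.5 and 37.6 in Llgl cKO, and 48.9, 52.0 and 40.5 in control. It fell by 0.77 in Trp53 heterozygotes (adjusted p 0.0362), and its interaction was -0.53 (-0.97 to -0.09). Spry4, a feedback inhibitor of receptor tyrosine kinases, had -1.24 (-2.47 to 0.00). Flg2, a filaggrin relative of the granular layer, measured 874, 976 and 755 CPM in Llgl cKO Trp53 het, 2020, 1770 and 1080 in Trp53 het, 1130, 1000 and 1630 in Llgl cKO, and 1400, 1700 and 1060 in control. Its interaction was -0.76, with an interval (-1.56 to 0.05) that included 0.

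Markers of other cell types moved with some of these results. Adipocyte markers had a median interaction of -2.0, but only Fabp4, Retn, Plin4 and Lpl of 11 were tested, while Adipoq, Plin1 and Lep fell below the filter. The summed adipocyte markers ranged from 5.94 to 8.71 CPM in Llgl cKO Trp53 het, 16.9 to 29.6 in Trp53 het, 8.93 to 11.8 in Llgl cKO and 12 to 40.7 in control, and their part in the sebaceous gland result, whose lipid genes fat cells share, was not tested. Melanocyte markers, whose cells sit in the hair bulb, had a median of -0.34, and Oca2, a melanosome protein, measured 1.26, 0.342 and 0.586 CPM in Llgl cKO Trp53 het, 1.85, 1.89 and 3.31 in Trp53 het, 2.47, 6.05 and 1.32 in Llgl cKO, and 1.47, 1.70 and 2.42 in control, with an interaction of -2.48 (-4.29 to -0.67). Summed melanocyte markers ranged from 374 to 551 CPM in Llgl cKO Trp53 het, 455 to 685 in Trp53 het, 438 to 795 in Llgl cKO and 389 to 622 in control, so the groups overlapped. Fibroblast markers had a median of -0.38, with sums of 251 to 340 CPM in Llgl cKO Trp53 het, 106 to 223 in Trp53 het, 201 to 293 in Llgl cKO and 80.9 to 232 in control. Only 3 of 12 endothelial and mural markers were tested, with Cspg4, a pericyte proteoglycan that other skin cells also make, at -0.74 (-1.32 to -0.16), while Pecam1, Cdh5 and Kdr fell below the filter and Rgs5 was at 0 in all libraries. Muscle and erythroid lists had a single tested member each.

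T cell markers had nearly the same median change in both Trp53 genotypes. It was -1.84 in Trp53 heterozygotes and -1.80 with intact Trp53, with 0 of 14 called in either, and the median interaction was 0.07. Their sums were 14.4 to 31.6 CPM in Llgl cKO Trp53 het, 22.8 to 70.2 in Trp53 het, 10.1 to 21.9 in Llgl cKO and 34.8 to 54.1 in control, and without Trp53 het 3 and Llgl cKO Trp53 het 1 the median interaction was -1.49. Langerhans cell and macrophage markers had 0.16, with Mrc1, a macrophage mannose receptor, at -1.02 (-1.90 to -0.14). The mitochondrially encoded mRNAs had 0.16, and mt-Nd4 had 0.19 (-0.24 to 0.63).

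The genes of smallest p in the negative direction were a mixed group beyond Scd1. Wfdc18, a small whey acidic protein domain gene, ranked first with 2 counts in Llgl cKO Trp53 het and 79 in Trp53 het, a ratio of 46.4 (12.4 to 390), against 16 in Llgl cKO and 22 in control, a ratio of 1.80 (0.903 to 3.67), both for counting error only. Cyp24a1, the enzyme that inactivates vitamin D and a target of its receptor, measured 0.0785, 0.0854 and 0.167 CPM in Llgl cKO Trp53 het, 1.02, 1.31 and 3.84 in Trp53 het, 1.92, 2.70 and 1.94 in Llgl cKO, and 1.47, 1.36 and 4.27 in control. The Llgl cKO Trp53 het libraries lay below all others, and the interaction was -3.99 (-6.39 to -1.59), or -2.92 without Trp53 het 3 and Llgl cKO Trp53 het 1. Cyp2g1, a cytochrome P450 known from olfactory mucosa, measured 11, 12.4 and 9.96 CPM in Llgl cKO Trp53 het, 103, 107 and 81.2 in Trp53 het, 41.7, 70.7 and 19.6 in Llgl cKO, and 104, 84.8 and 67.7 in control. It fell by 3.13 in Trp53 heterozygotes (adjusted p 0.00523), with an interaction of -2.17 (-3.27 to -1.07).

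The next genes on the negative side were Dvl3, Epb4.1l1, Rsad1 and Fndc1. Dvl3, a dishevelled protein of Wnt signalling, measured 53.5, 53.2 and 46.5 CPM in Llgl cKO Trp53 het, 66.3, 63.7 and 65.3 in Trp53 het, 63.9, 65.6 and 66.3 in Llgl cKO, and 55.6, 50.9 and 59.5 in control. The Llgl change had opposite signs in the 2 Trp53 genotypes, -0.35 and 0.24 in the same order, neither called, and the interaction was -0.59 (-0.88 to -0.29). Epb4.1l1, a membrane skeleton protein, had a similar order of group means, at 21.5 ± 1.17 CPM in Llgl cKO Trp53 het, 31.6 ± 1.65 in Trp53 het, 32.2 ± 5.19 in Llgl cKO, against 27.9 ± 1.49 in control (SD, n = 3), with -0.76 (-1.16 to -0.36). Rsad1, of the radical SAM protein family, measured 4.08, 2.65 and 2.01 CPM in Llgl cKO Trp53 het and 6.80 to 9.88 in the other 9 libraries, with -1.46 (-2.21 to -0.72). Fndc1, a fibronectin type III domain protein, measured 1.81, 1.54 and 1.34 CPM in Llgl cKO Trp53 het and 3.37 to 13.9 in the other libraries, with -2.13 (-3.29 to -0.98).

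Genes on the positive side had smaller values. Pdlim1, an actin-associated adaptor, measured 67, 77.5 and 87.3 CPM in Llgl cKO Trp53 het, 44.0, 50.3 and 53.1 in Trp53 het, 56.8, 54.6 and 66.8 in Llgl cKO, and 63.1, 60.1 and 57.2 in control. It rose by 0.65 in Trp53 heterozygotes (adjusted p 0.0369) and its interaction was 0.67 (0.28 to 1.06). Npc2, a lysosomal cholesterol carrier, measured 133, 150 and 137 CPM in Llgl cKO Trp53 het and 97.9, 102 and 94.5 in Trp53 het, against 130, 122 and 113 in Llgl cKO and 127, 114 and 111 in control, with 0.46 (0.15 to 0.76). Halr1, a noncoding RNA next to the Hoxa cluster, measured 12.5, 14.6 and 17.4 CPM in Llgl cKO Trp53 het, 6.37, 6.69 and 5.80 in Trp53 het, 11.1, 11 and 9.25 in Llgl cKO, and 8.18, 8.08 and 6.85 in control. It rose by 1.24 in Trp53 heterozygotes (adjusted p 0.00906), and with 0.44 with intact Trp53 its interaction was 0.80 (0.26 to 1.33). In Pdlim1, Npc2 and Halr1 the Trp53 het libraries were the lowest of the 4 groups and the Llgl cKO Trp53 het libraries the highest.

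Among the remaining positive genes, Hpgds, a prostaglandin D synthase of immune cells, had 0.73 (0.29 to 1.17), at 72.3 ± 11.9 CPM in Llgl cKO Trp53 het, 54.9 ± 6.12 in Trp53 het, 49.3 ± 5.85 in Llgl cKO, against 62 ± 5.0 in control (SD, n = 3). Bin2 and Cytip, both expressed in leukocytes, had 1.28 (0.45 to 2.1) and 1.79 (0.59 to 2.99). Bin2 measured 4.55, 6.32 and 5.02 CPM in Llgl cKO Trp53 het, 3.42, 2.91 and 3.54 in Trp53 het, 2.75, 1.82 and 3.61 in Llgl cKO, and 4.74, 4.08 and 3.63 in control, so Llgl cKO Trp53 het and control overlapped. Ccpg1os, antisense to another gene by its name but protein-coding in the annotation, had 1.57 (0.57 to 2.56). Without the strand setting its reads cannot be told apart from those of its partner. Etos1 had 3.01 (1.07 to 4.95) at 0.398 to 1.42 CPM on average. From the genes called in the average Llgl change, Ppp1r14b, a phosphatase inhibitor, had 0.45 (0.14 to 0.75), Mpped1 0.76 (0.19 to 1.32), and Acvrl1, a BMP receptor of endothelium, 0.78 (0.23 to 1.34).

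**Figure D4:**
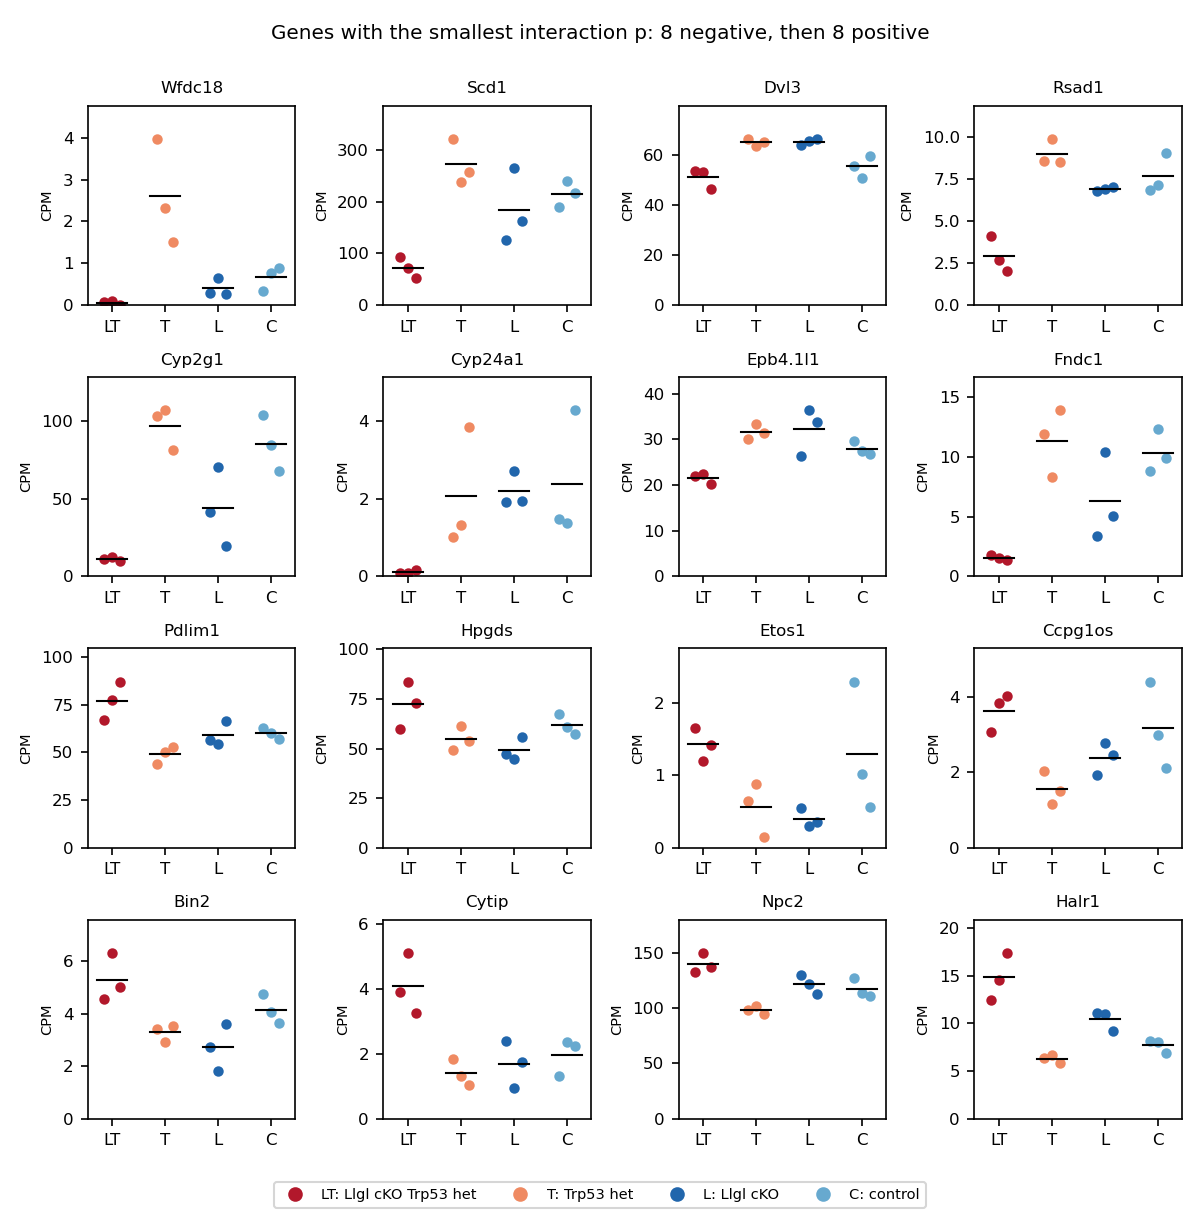
CPM in each library (points) with group means (horizontal lines) of the 8 named genes with the smallest interaction p in each direction, for Llgl cKO Trp53 het (LT), Trp53 het (T), Llgl cKO (L) and control (C), each y axis starting at 0. Scd1, for instance, lies between 52.0 and 93.1 CPM in Llgl cKO Trp53 het and at or above 125 in the other 9 libraries, while Halr1 is highest in Llgl cKO Trp53 het.

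**Figure D5:**
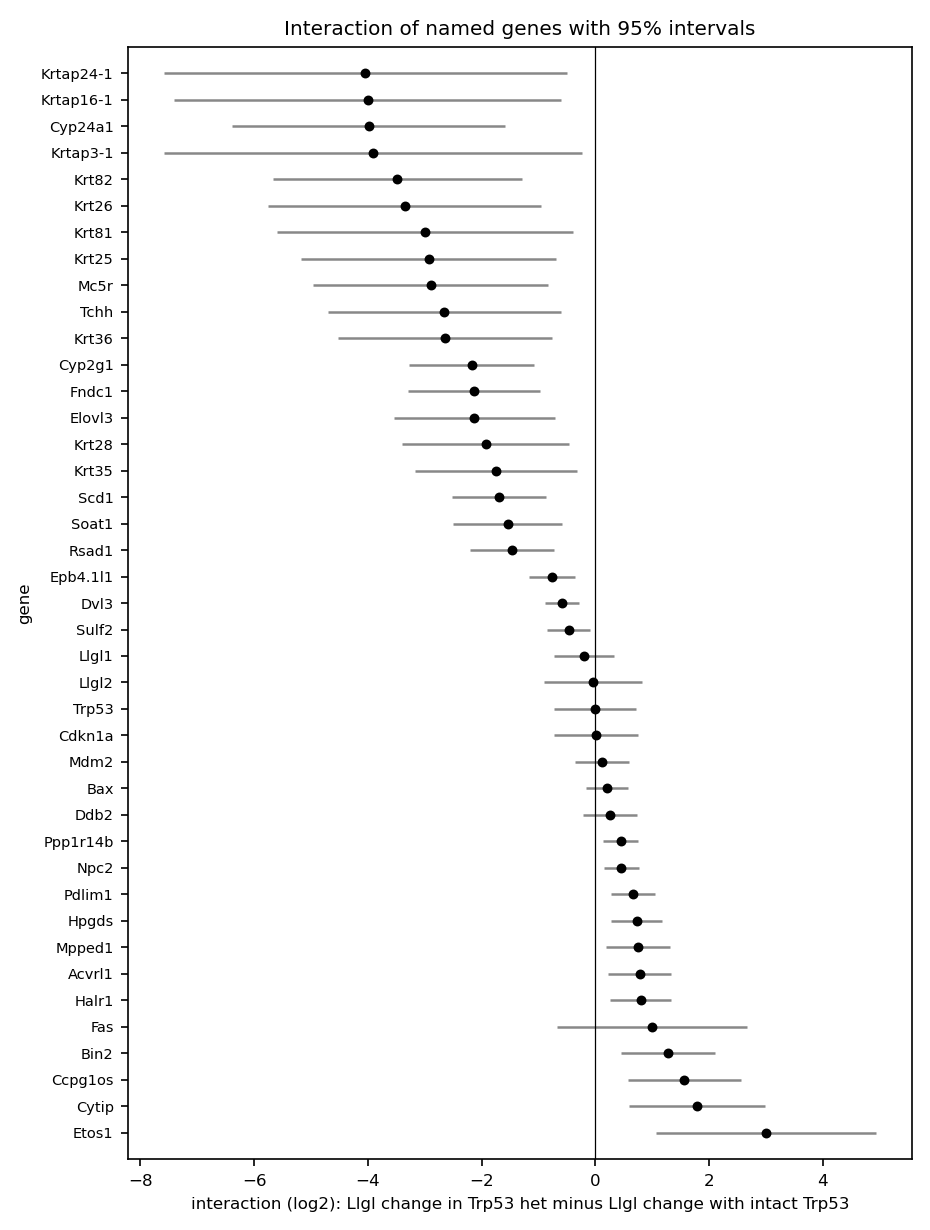
Interaction (points, log2) of the named genes with 95% intervals (lines), genes with at most 3 counts in a group left out. Krt82 stands at -3.48 (-5.67 to -1.29) and Scd1 at -1.69 (-2.52 to -0.86), while the intervals of Cdkn1a, Mdm2, Llgl1, Llgl2 and Trp53 include 0.

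The 428 genes at an unadjusted p below 0.05 came from different layouts of the 4 groups. Of the 269 negative ones, 144 had changes of the same sign that were larger in Trp53 heterozygotes, 120 had changes of opposite sign, and 82 were called in Trp53 heterozygotes, with a median interaction of -1.45 and 104 below 2-fold. Of the 159 positive ones, 109 had changes of opposite sign, 45 were larger in Trp53 heterozygotes with the same sign, and 14 were called there, with a median of 0.64 and 110 below 2-fold. These genes were picked by the same test, so the counts describe them and support nothing further.

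Read the other way, the interaction is the Trp53 change in Llgl mutants minus the Trp53 change with intact Llgl. Neither change called a gene: the test of Llgl cKO Trp53 het against Llgl cKO gave 0 (0%), with 747 genes at an unadjusted p below 0.05 (5.12%), and that of Trp53 het against control gave 0 (0%), with 63 (0.432%). Hair shaft keratins had a median Trp53 change of -2.87 in Llgl mutants and -0.16 with intact Llgl. For the inner root sheath these medians were -2.51 and -0.08, for keratin-associated proteins -3.31 and -0.22, and for the sebaceous gland -0.77 and 0.15. For p53 targets they were 0.03 and -0.07. These medians describe the same libraries as the interaction and add no independent evidence to it.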

How the data were processed

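The authors deposited raw counts per gene and library, whole numbers with no normalization, for 46078 genes in 12 libraries. Per the labels' protocols, stranded mRNA libraries were made from total RNA, and per the submitters' processing notes STAR, featureCounts 1.6.4 and DESeq2 2.11.40.8 were used with GRCm38. Annotation release, strand setting and filters are not given in the sources used here. Each library was mapped to its group by its labels. A GRCm38 annotation matched 14532 of the tested identifiers, and 214 symbols were shared by several.

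Counts were fitted in R 4.3.3 with edgeR 4.0.16: TMM scaling, filterByExpr over the 4 groups (minimum count 10), a robust quasi-likelihood model of 4 group means with 8 residual degrees of freedom, and Benjamini-Hochberg adjustment over the 14582 genes tested, with calls at an adjusted p below 0.05. CPM were computed with TMM-scaled library sizes. The biological coefficient of variation was 23.8%. Intervals are 95% Wald intervals. Genes with at most 3 counts in a group get ratios of summed counts with exact 95% binomial intervals, for counting error only, since reads were not counted as molecules. Linear interactions are differences of mean CPM. Per-library list levels are means of log2(CPM + 0.1).

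Named genes were Llgl1, Llgl2 and Trp53, the 8 of smallest interaction p in each direction with at least 1 CPM in a group and no predicted or clone name, the member of smallest p in each list (4 in hair shaft keratin, inner root sheath, keratin-associated protein, sebaceous gland and p53 target lists), and the 4 of smallest p in each direction among genes called in the average Llgl change. Exceptions are marked as chosen after their values were seen. The comparison, the members and the lists were chosen with earlier results of these data known. Lists are described by counts and medians, with no set test. Alternatives were DESeq2 1.42.0, limma 3.58.1 (voom), median-of-ratios and upper-quartile scaling, 2 other low-count filters, a minimum 2-fold change, leaving out each library, a block for replicate number in all groups or in Trp53 het and control only, and a sex term. Same-number libraries of Trp53 het and control, but of no other 2 groups, deviated together in all 3 pairs. Scripts were tested on simulated data. The result of 1 gene that this rule names is not reported here.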

Additional observations from a re-analysis of the deposited data

How the results depend on the processing

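No setting called a gene for the interaction, and the smallest adjusted p was 0.143, with DESeq2. Among the named genes the sign changed under at least 1 setting for Trp53, Cdkn1a, Llgl2, Mdm2 and Kif23. The count of genes at an unadjusted p below 0.05, 428 as reported, was 425 with median-of-ratios and 433 with upper-quartile scaling, 452 with sex as a term, 575 of 25889 genes with no low-count filter, and 86 against a minimum 2-fold change. Leaving out each library in turn gave 243 (without Llgl cKO 2) to 619 (without Trp53 het 3), and 2 alternatives chosen with results known gave 689, without Llgl cKO Trp53 het 1 and Trp53 het 3, and 488, without Trp53 het 3 and control 3.

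With each library left out in turn, list medians ranged from -3.43 to -1.84 for hair shaft keratins, -3.19 to -1.69 for the inner root sheath, -5.46 to -2.23 for keratin-associated proteins, -0.70 to -0.26 for hair matrix transcription factors, -1.11 to -0.75 for the sebaceous gland, -2.91 to -1.46 for adipocyte markers, -0.46 to -0.13 for cholesterol synthesis, -0.89 to 1.44 for G2 and M phase, -0.69 to 0.73 for S phase, -1.02 to 0.53 for T cell markers and -0.04 to 0.14 for p53 targets. Without Trp53 het 3 and Llgl cKO Trp53 het 1 the medians were -3.86 for hair shaft keratins, -3.46 for the inner root sheath, -5.96 for keratin-associated proteins, -1.25 for the sebaceous gland, 1.53 for G2 and M phase and -1.49 for T cell markers. The cause of these shifts was not tested.

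With the replicate number as a block, 0 genes were called and 551 had an unadjusted p below 0.05. Deviations from group means correlated above 0.1 in 9 of 18 same-number pairs, from -0.339 to 0.812. All 3 pairs of Trp53 het and control did (0.596, 0.19 and 0.812), and those of no other 2 groups did, so the numbers do not pair all 4 groups. A block shared by Trp53 het and control libraries only, chosen with results known, called 0 genes for the interaction, with 733 at an unadjusted p below 0.05 and a smallest adjusted p of 0.268. For Trp53 het against control it called 0, with 108 at that p against 63 with no block.

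With 3 libraries a group and 8 residual degrees of freedom, interactions of under 2-fold were mostly beyond reach below 10 CPM. In abundant genes larger ones, such as that of Scd1 at -1.69, were not called either. Trp53 het 2 and control 1, the shallowest libraries, resolve low genes least.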
